A study of Mus musculus with 18 samples.

Results

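Liver mRNA levels of 9 enzymes that break down or transaminate amino acids (Tat, Hpd, Tdo2, Sds, Agxt, Hal, Got1, Gpt and Gpt2) were examined in mice made diabetic with streptozotocin (STZ) and in mice given alginate oligosaccharide (AOS) or a fecal microbiota transplant (FMT). The 9 genes were chosen by symbol from the 19054 gene symbols of the table, with earlier results of these data known, and all 9 were found in it and passed the filter on low values. Groups of 3 ICR mice (6 groups, 18 mice) were sampled at 10 weeks of age, male according to the methods of the study. Con mice received no active treatment, AOS mice received AOS at 10 mg/kg, STZ mice received STZ, and STZ+AOS mice received both. Con-FMT mice received STZ and then the gut microbiota of control donors, and in A10-FMT mice the donors of the microbiota had received AOS (10 mg/kg). All groups other than Con and AOS therefore carried STZ, which kills the insulin-producing beta cells of the pancreas and can also act on other tissues, so that loss of insulin and direct effects of the toxin on the liver cannot be told apart here. The AOS and STZ+AOS groups are known from the sample labels alone.

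The liver is the main site of amino acid breakdown. Aminotransferases move the amino group of an amino acid to a keto acid. Dehydratases and lyases such as Sds and Hal release nitrogen directly, and oxygenases act on the carbon skeleton. The carbon can then enter gluconeogenesis or the citric acid cycle, and the nitrogen can enter the urea cycle. Many of these enzymes are known to be induced in liver by fasting, glucagon and glucocorticoids and to be held down by insulin.

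The level of each gene is given as RPKM, reads divided by transcript length and by the number of reads mapped in that library. Low values of short genes, taken within a preset window, put the depth at an estimated 12.3 to 13.7 M reads per library. The window bounds this estimate in advance, so it depends largely on the window chosen. At that depth the lowest value of any member, 33.6 RPKM for Got1 in Con mouse 1, stood for an estimated 909 reads. The 5 hepatocyte markers found of 6 listed summed to 35180 RPKM or more in each library, and all 3 adipocyte and all 3 kidney markers were under 1 RPKM in all 18 libraries. STZ mouse 3 and STZ+AOS mouse 3 stood apart, with mean correlations to the other mice of their group of 0.953 and 0.961, and STZ+AOS mouse 3 alone had 60.2 RPKM of summed pancreatic acinar markers, against 0.04 to 1.67 RPKM in the other 17 libraries. Con-FMT mouse 1 had 9166 RPKM of summed erythroid markers, against 279.7 to 3334 RPKM in the other 17. In bulk liver, fewer cells of a type and less RNA per cell cannot be told apart. Changes are differences of log2(RPKM + 1) between group means, tested for all 10821 genes with at least 1 RPKM in 3 or more libraries in 1 limma model of all 18 libraries, and a gene was called at a Benjamini-Hochberg adjusted p under 0.05.

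Most of these genes were higher after STZ. In STZ vs Con, 8 of the 9 members were called higher and none lower, where 30.8% of all tested genes were called higher and 5.25% lower. The 3 STZ mice were above the 3 Con mice without overlap for 8 members (all but Agxt), as for 40.6% of tested genes. The median change of the 9 was 1.06 on the log2 scale, beside 0.21 over all tested genes. Cytosolic aspartate aminotransferase (Got1) changed most, by 6.71-fold, followed by serine dehydratase (Sds) at 3.21-fold, 4-hydroxyphenylpyruvate dioxygenase (Hpd) at 2.64-fold and tyrosine aminotransferase (Tat) at 2.41-fold. Alanine-glyoxylate aminotransferase (Agxt) did not pass, with a change of 0.77 and an adjusted p of 0.0505.

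**Figure D1:**
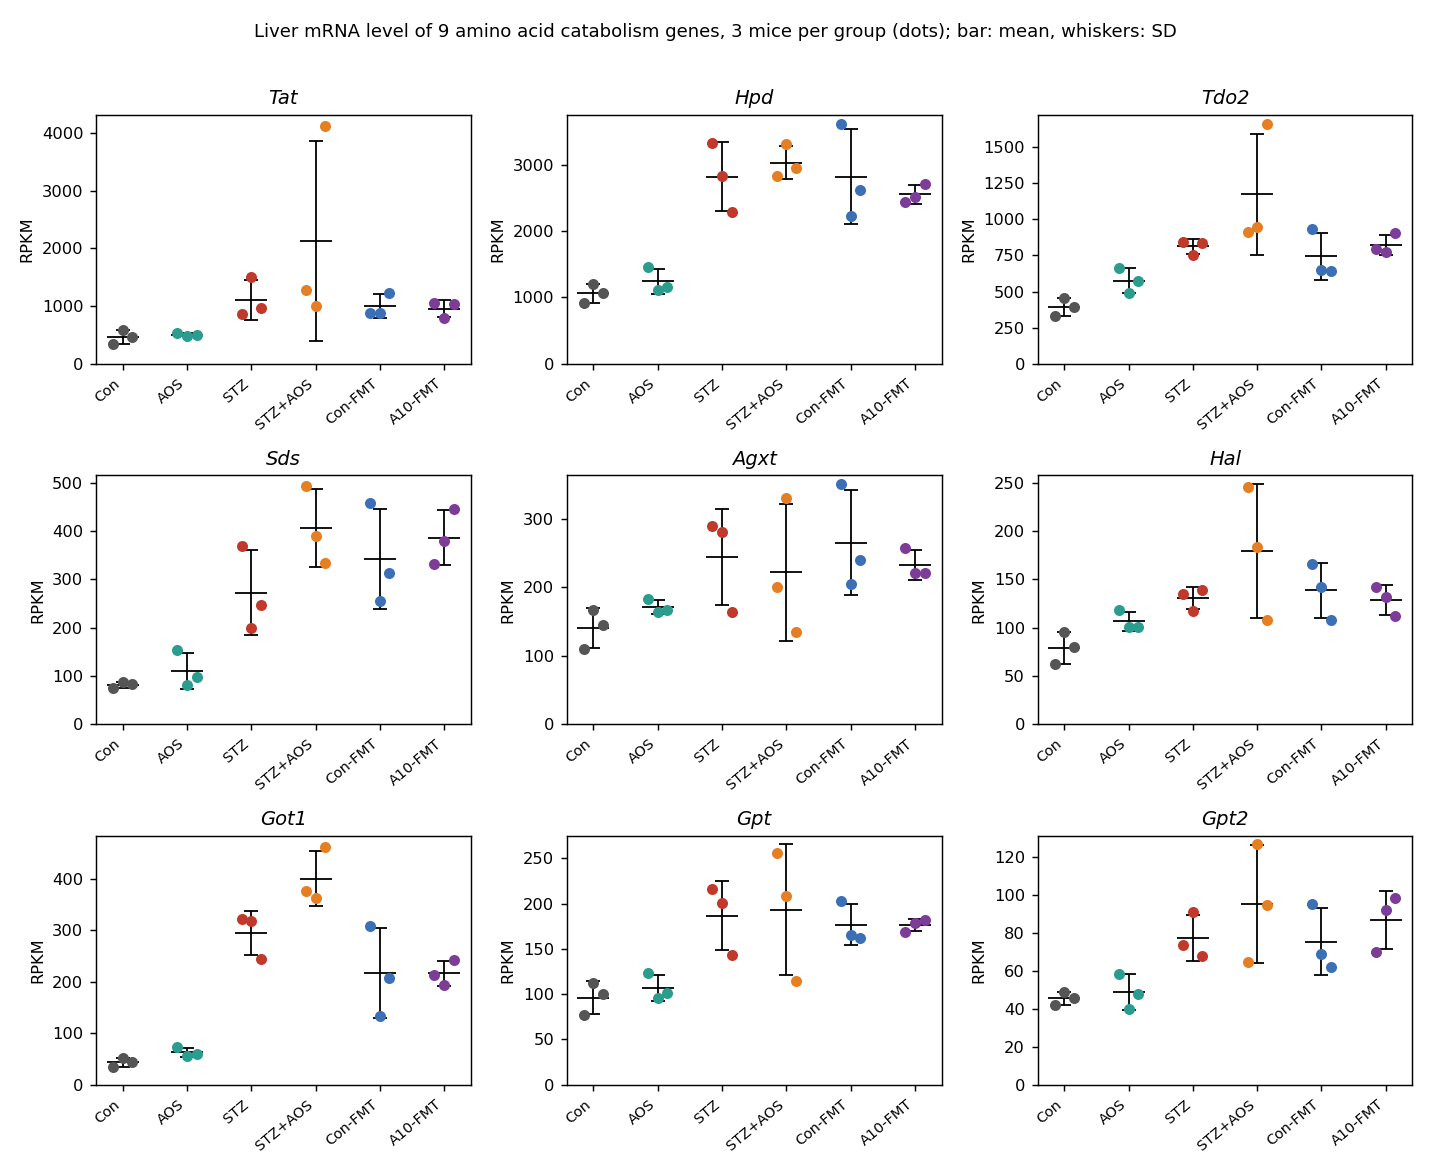
RPKM of each member (y axis, from 0) in the 6 groups (x axis). Dots are single mice, the horizontal bar is the group mean and the whiskers are 1 SD (n = 3 per group); for Got1 the 12 mice given STZ lie between 133 and 462 RPKM and the 6 others between 33.6 and 73.3 RPKM.

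The transaminases are described first. Got1 (chromosome 19, 43499752 to 43524605, minus strand, GRCm38) makes aspartate and 2-oxoglutarate into oxaloacetate and glutamate in the cytosol and takes part in the malate-aspartate shuttle. Its level was 33.6, 51.8 and 44.8 RPKM in the 3 Con mice and 321, 318 and 245 RPKM in the 3 STZ mice. The groups were far apart, and even the lowest STZ mouse was several times above the highest Con mouse. The change was 2.75 with a standard error of 0.24 (limma, adjusted p = 6.8e-06). Got2, the mitochondrial aspartate aminotransferase, was added as its partner after its values were seen and changed by 0.50 with a standard error of 0.15 (limma, adjusted p = 0.021; 0.23 and 0.201 with median-ratio scaling). Its mean was 216.6 ± 31.1 RPKM in Con and 306 ± 38.1 RPKM in STZ (SD, n = 3); the difference between the changes of Got1 and Got2 was not tested. Per length of transcript, Got1 was thus below Got2 in Con and close to it in STZ.

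The 250 bases upstream of the start of Got1 and of Tat are shown because Got1 changed most of all members and Tat reached the highest level of any transaminase among the 9 in a single mouse. They come from RefSeq (GRCm38.p6), read 5′ to 3′ on the strand of the gene, with CCAAT or its reverse complement ATTGG in capitals. Got1 lies at chr19:43524606-43524855 (minus strand) and Tat at chr8:109990186-109990435 (plus strand) in that table.
Got1: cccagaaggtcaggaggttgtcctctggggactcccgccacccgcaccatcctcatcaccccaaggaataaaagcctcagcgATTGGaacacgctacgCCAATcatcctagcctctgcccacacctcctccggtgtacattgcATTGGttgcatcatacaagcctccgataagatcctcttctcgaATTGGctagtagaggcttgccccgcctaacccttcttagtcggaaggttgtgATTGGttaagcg
Tat: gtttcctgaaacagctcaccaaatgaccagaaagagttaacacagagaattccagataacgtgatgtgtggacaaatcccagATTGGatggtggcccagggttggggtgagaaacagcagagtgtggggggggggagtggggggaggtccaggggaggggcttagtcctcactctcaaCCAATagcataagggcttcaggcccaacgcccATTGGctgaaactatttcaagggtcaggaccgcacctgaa
Got1 held 5 matches and Tat held 3. Upstream sequence was found for 7 of the 9 members (Sds and Gpt were not matched), and 4 of these 7, Tat, Tdo2, Hal and Got1, held CCAAT on either strand, as did 34.5% of 27025 mouse promoters over the same length. The cAMP response half-site TGACG was in none of the 7 (17.9% of promoters), the glucocorticoid half-site TGTTCT was in Agxt alone (16.2%), the C/EBP sequence TTGCNNAA was in Hal alone (9.55%) and the forkhead sequence GTAAACA was in none (3.09%). These are letter matches on both strands, not binding sites, and nothing about the factors follows from them.

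Alanine aminotransferase has 2 genes in this set. Gpt (chromosome 15, 76695716 to 76699686), the cytosolic enzyme whose activity in blood is the clinical ALT assay, was at 76.5, 112 and 100 RPKM in Con and at 216, 201 and 143 RPKM in STZ. All 3 STZ mice were above all Con mice, and the change was 0.95 with a standard error of 0.24 (limma, adjusted p = 0.0074). Gpt2 (chromosome 8, 85492576 to 85527560), the mitochondrial form, was at 42.1, 48.7 and 45.7 RPKM in Con and at 73.4, 91.3 and 68.0 RPKM in STZ. These groups did not overlap either, and the change was 0.75 with a standard error of 0.22 (limma, adjusted p = 0.018). The value measured here is mRNA in liver, not enzyme in blood. Agxt (chromosome 1, 93135240 to 93145421), which turns glyoxylate into glycine, was at 110, 167 and 145 RPKM in Con and at 289, 281 and 163 RPKM in STZ. STZ mouse 3 lay below the highest Con mouse, so the groups overlapped. Agxt passed under 8 of 17 alternatives, among them leaving out STZ mouse 3 (adjusted p = 0.0117).

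Tat and Hpd carry out the first and second steps of tyrosine breakdown, and Tdo2 opens the ring of tryptophan. Tat (chromosome 8, 109990437 to 109999803) was at 334, 581 and 455 RPKM in Con and at 862.5, 1498 and 958 RPKM in STZ. Hpd (chromosome 5, 123171807 to 123182727) had the highest mean RPKM of the 9 in each group and was at 910.1, 1204 and 1060.2 RPKM in Con and 3328, 2828 and 2286 RPKM in STZ. Neither gene had overlapping groups, and the spread between STZ mice was wider for Tat than for Hpd, with coefficients of variation of 31.0% and 18.5%. Hpd changed by 1.40 with a standard error of 0.20 (limma, adjusted p = 0.00019) and Tat by 1.27 with a standard error of 0.39 (limma, adjusted p = 0.0208). Tdo2 (chromosome 3, 81957090 to 81976202) was at 331, 458 and 391 RPKM in Con and at 846, 755 and 836 RPKM in STZ, again without overlap, and changed by 1.06 (limma, adjusted p = 0.0021).

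Sds and Hal remove nitrogen directly. Sds (chromosome 5, 120476526 to 120483932) makes pyruvate from serine and was at 74.3, 86.5 and 83.8 RPKM in Con and at 369, 199.4 and 247 RPKM in STZ. It changed by 1.68 with a standard error of 0.26 (limma, adjusted p = 0.00041). Hal (chromosome 10, 93488768 to 93519304), which releases ammonia from histidine as the first step of its breakdown, was at 61.9, 95.4 and 79.8 RPKM in Con and at 135, 118 and 139 RPKM in STZ. The groups did not overlap for either gene, and Hal had the smallest change of the 9, at 0.73 (limma, adjusted p = 0.027).

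The number of members called depended on scaling and on single libraries. RPKM sums were lower after STZ (631126 to 684659) than in Con (749557 to 806937), and the median change over all genes was 0.21. With median-ratio scaling, which removes that shift, 5 members were called higher (Got1, Sds, Hpd, Tdo2 and Gpt) and none lower, against 12.2% of all genes called higher and 12.1% lower; the share of calls that were higher went from 85.5% to 50.3%. All 9 changes stayed above 0 under both scalings. Tat lost its call without Con mouse 1, Con mouse 3 or STZ mouse 2, Hal without Con mouse 1, Con mouse 3, STZ mouse 1 or STZ mouse 3, and Gpt2 without Con mouse 1 or STZ mouse 2. Without Con mouse 1, the lowest Con mouse for all 9 members, 5 members were called; without STZ mouse 3, 8 were called, and without STZ+AOS mouse 3, whose spread enters the shared model, 9 were called. Con mouse 1 stayed in the analysis, since nothing in the labels set it apart.

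Levels in the transplanted mice, which had all received STZ, were also above Con. Con-FMT vs Con and A10-FMT vs Con use the same 3 Con mice as STZ vs Con, so they are not independent of it. In Con-FMT vs Con, 8 members were called higher (all but Tat) and none lower, where 16.3% of tested genes were called higher and 1.78% lower. A10-FMT vs Con gave 6 (Got1, Sds, Hpd, Tdo2, Gpt and Gpt2) and none lower, beside 14.7% and 2.39% of all genes. In both comparisons all 9 members were higher in each transplanted mouse than in each Con mouse, a pattern of non-overlap seen in 40.1% of genes for Con-FMT and 41.2% for A10-FMT. Median changes of the 9 were 0.91 and 1.08, beside 0.18 and 0.16 over all genes. Without Con mouse 1 the counts were 3 for Con-FMT and 4 for A10-FMT, and without Con-FMT mouse 1 the count for Con-FMT was 3, without Con mouse 3 it was 4. Con-FMT mouse 1, the library with the highest erythroid markers, was the highest of its group for 8 of the 9 members; their part in these values was not tested. Without STZ+AOS mouse 3, 9 were called in each, and under median-ratio scaling the counts were 3 (3.54% of genes higher and 3.08% lower) and 5 (5.11% higher and 4.40% lower).

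**Figure D2:**
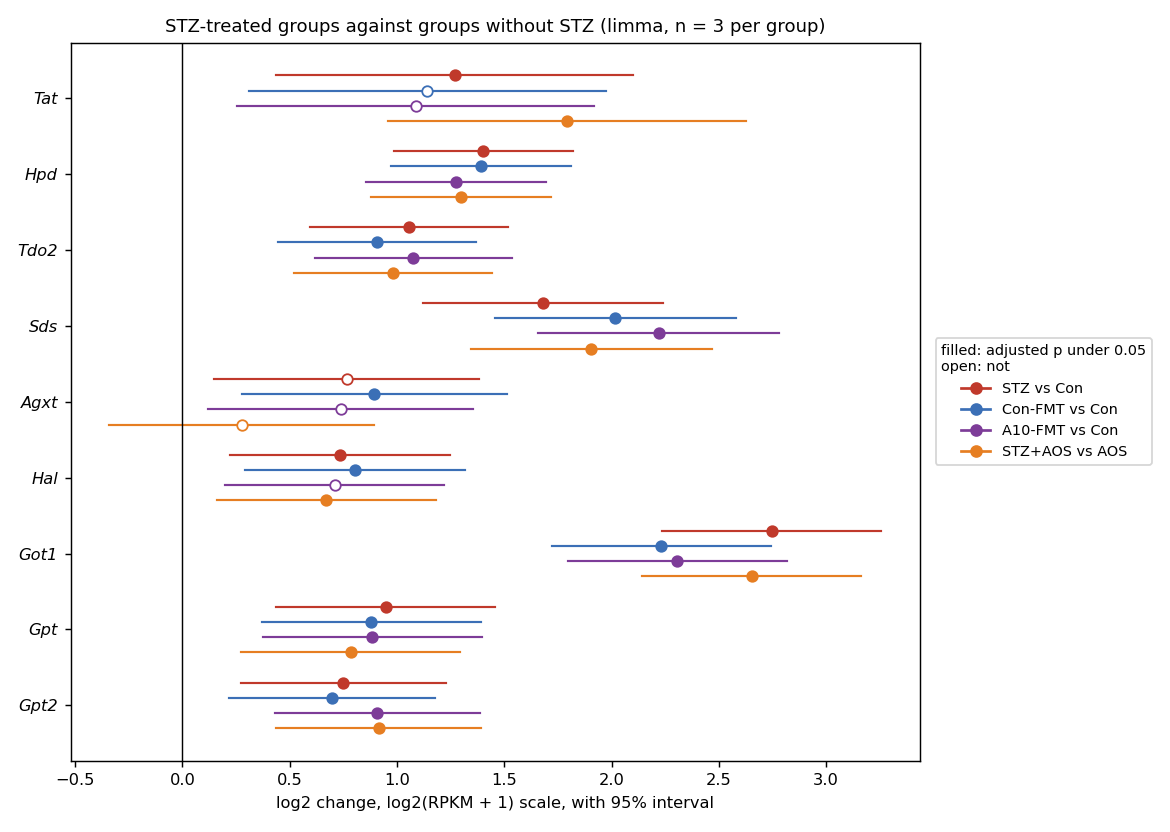
Change of each member on the log2(RPKM + 1) scale (x axis) in the 4 comparisons of STZ-treated with STZ-free groups (n = 3 each); points are estimates, lines are 95% intervals, and filled points passed an adjusted p under 0.05. Got1 and Sds lie farthest to the right in all 4 comparisons, and the interval of Agxt in STZ+AOS vs AOS crosses 0.

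No member was called between a transplanted group and STZ. In A10-FMT vs STZ the count was 0 of 9, beside 0.49% of tested genes called, and in Con-FMT vs STZ it was 0 of 9, beside 0.166%. Without adjustment, 2040 and 2029 genes had a limma p under 0.05 in these comparisons. Got1 was at 213, 194 and 241 RPKM in A10-FMT and at 308, 133 and 208 RPKM in Con-FMT, beside 245 to 321 RPKM in STZ. The 3 A10-FMT mice were below the 3 STZ mice (13.9% of genes showed such non-overlap), whereas Con-FMT overlapped with STZ. The difference from STZ was -0.44 for A10-FMT (95% interval -0.95 to 0.07, limma, adjusted p = 0.332) and -0.51 for Con-FMT (-1.02 to -0.0034, adjusted p = 0.264). Sds differed the other way, at 0.54 (-0.022 to 1.10, adjusted p = 0.281) and 0.34 (-0.22 to 0.90, adjusted p = 0.515). Single mice moved these values: Got1 in Con-FMT vs STZ was -0.81 without Con-FMT mouse 1 and -0.21 without Con-FMT mouse 2, and Sds was 0.11 and 0.52 without the same mice, and 0.14 without STZ mouse 2 and 0.58 without STZ mouse 1. In A10-FMT vs STZ Sds was 0.34 without STZ mouse 2. The other 7 members lay between -0.18 (Tat) and 0.16 (Gpt2) in A10-FMT vs STZ and between -0.15 (Tdo2) and 0.13 (Agxt) in Con-FMT vs STZ.

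The intervals of Got1 leave room for a fall of moderate size and those of Sds for a rise, with less room the other way. Those of the other members lay on both sides of 0 in both comparisons with STZ, such as Tat in A10-FMT vs STZ (-1.01 to 0.65). Without STZ mouse 3, calls over all genes went from 53 to 998 in A10-FMT vs STZ and from 18 to 1320 in Con-FMT vs STZ, and the member count was still 0 in both. A10-FMT vs Con-FMT gave 0 of 9 members, beside 0 of 10821 genes called and 245 with an unadjusted limma p under 0.05, and the 9 differences ran from -0.15 (Agxt) to 0.21 (Gpt2). Mice of these 2 groups overlapped for all 9 members. The 2 comparisons with STZ share the STZ mice.

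AOS alone gave no call. In AOS vs Con, 0 of 9 members passed, beside 0.00924% of tested genes called (781 genes had an unadjusted limma p under 0.05). Tdo2 was at 664, 491 and 574 RPKM, Got1 at 73.3, 55.9 and 59.3 RPKM and Hal at 118, 101 and 100.5 RPKM in the AOS mice. For these 3 genes all AOS mice were above all Con mice, a pattern that 19.1% of genes showed. The differences were 0.55 for Tdo2, 0.54 for Got1 and 0.44 for Hal (limma, adjusted p = 0.647, 0.671 and 0.731), and the smallest of the 9 was 0.09 for Gpt2. All 9 differences were above 0, with a median of 0.30 beside 0.064 over all tested genes. The share of all genes with a difference above 0 was not counted. With 1 mouse left out, Tat went as low as -0.039 and Gpt2 as low as -0.050. AOS mouse 1 was the highest of its group for all 9 members.

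**Figure D3:**
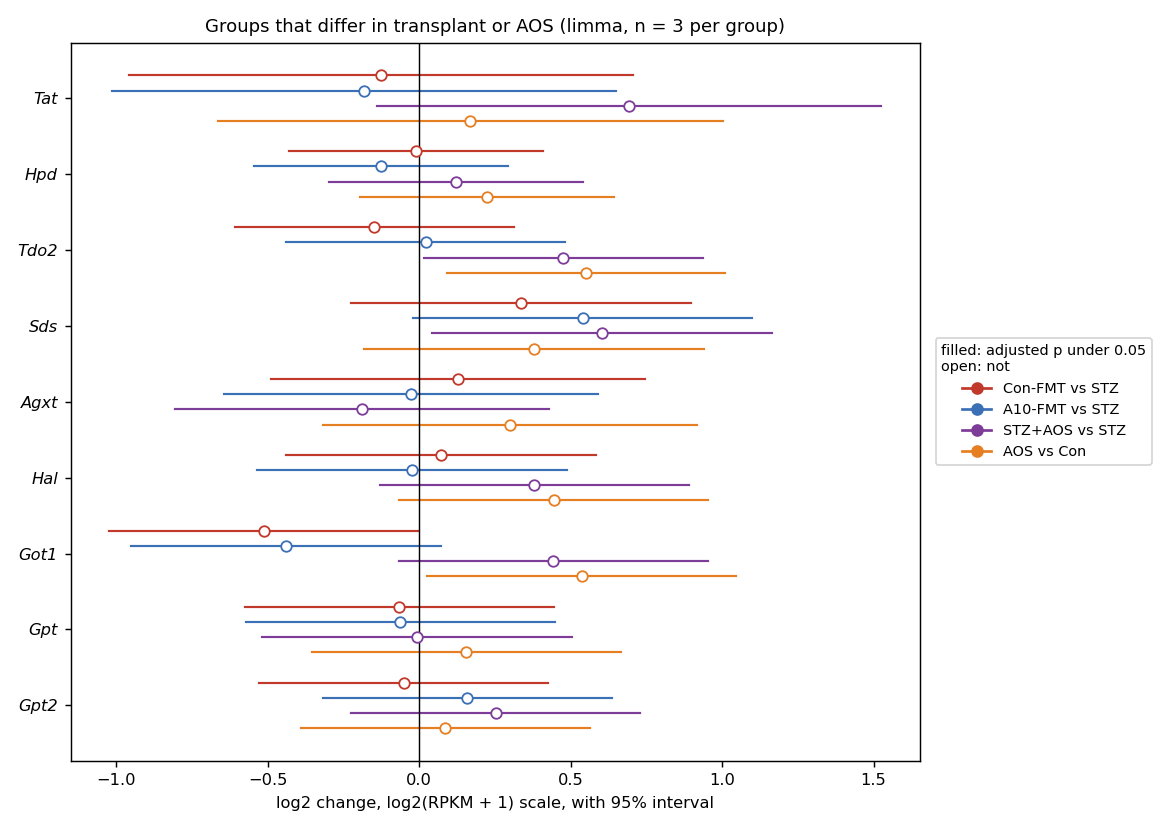
Change of each member on the log2(RPKM + 1) scale (x axis) between groups that differ in transplant or AOS (n = 3 each), with 95% intervals; open points did not pass an adjusted p under 0.05. All 36 points are open, and Got1 lies below 0 in both comparisons of transplanted mice with STZ.

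With AOS present, the contrast of mice with and without STZ was again large. In STZ+AOS vs AOS, 8 members were called higher (all but Agxt) and none lower, where 31.8% of tested genes were called higher and 6.11% lower, and the median change was 0.98. With median-ratio scaling 6 were called higher, without Gpt and Hal, and none lower, beside 12.2% of genes higher and 12.2% lower, and the share of calls that were higher went from 83.9% to 49.98%. Got1 changed by 2.65, Sds by 1.91, Tat by 1.79 and Hpd by 1.30 (limma, adjusted p = 6.9e-06, 0.00022, 0.0031 and 0.00038). Agxt changed by 0.28 (limma, adjusted p = 0.47). 6 members (Tat, Hpd, Tdo2, Sds, Got1 and Gpt2) did not overlap between these groups (40.5% of genes did not). Gpt and Hal were called although their groups overlapped, since STZ+AOS mouse 3 lay among the AOS mice. Gpt lost its call without AOS mouse 2, AOS mouse 3 or STZ+AOS mouse 1 or 2, and Hal without any of the 3 AOS mice or STZ+AOS mouse 1 or 2. The difference between the STZ effects with and without AOS was called for 0 of 9 members and 0 of 10821 genes (584 with an unadjusted limma p under 0.05), and it ran from -0.49 (Agxt, 95% interval -1.36 to 0.38) to 0.52 (Tat, -0.65 to 1.70).

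STZ+AOS mouse 3 differed from the 2 other mice of its group in direction from gene to gene. Tat was at 1276, 994 and 4124 RPKM in STZ+AOS mice 1 to 3, and Tdo2 at 916, 947 and 1659 RPKM. Mouse 3 held the highest value of all 18 mice for both of these genes and for Got1 (462 RPKM). It held the lowest of its group for Agxt (134 RPKM), Gpt (114 RPKM), Hal (108 RPKM) and Sds (334 RPKM). The acinar markers were raised in this library, and their part in these values was not tested.

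STZ+AOS vs STZ gave 0 of 9 members called, beside 0 of 10821 genes (657 with an unadjusted limma p under 0.05). Tdo2 and Got1 were higher in all 3 STZ+AOS mice than in all 3 STZ mice, as were 4.08% of genes. Their differences were 0.48 (95% interval 0.016 to 0.94) and 0.44 (-0.067 to 0.95), with limma adjusted p of 0.807 and 0.811. Tat differed by 0.69 (-0.14 to 1.53), Sds by 0.60 (0.043 to 1.16) and Agxt, the lowest, by -0.19. Without STZ+AOS mouse 3 the differences were 0.069 for Tat, 0.20 for Tdo2, 0.34 for Got1 and 0.12 for Agxt.

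**Figure D4:**
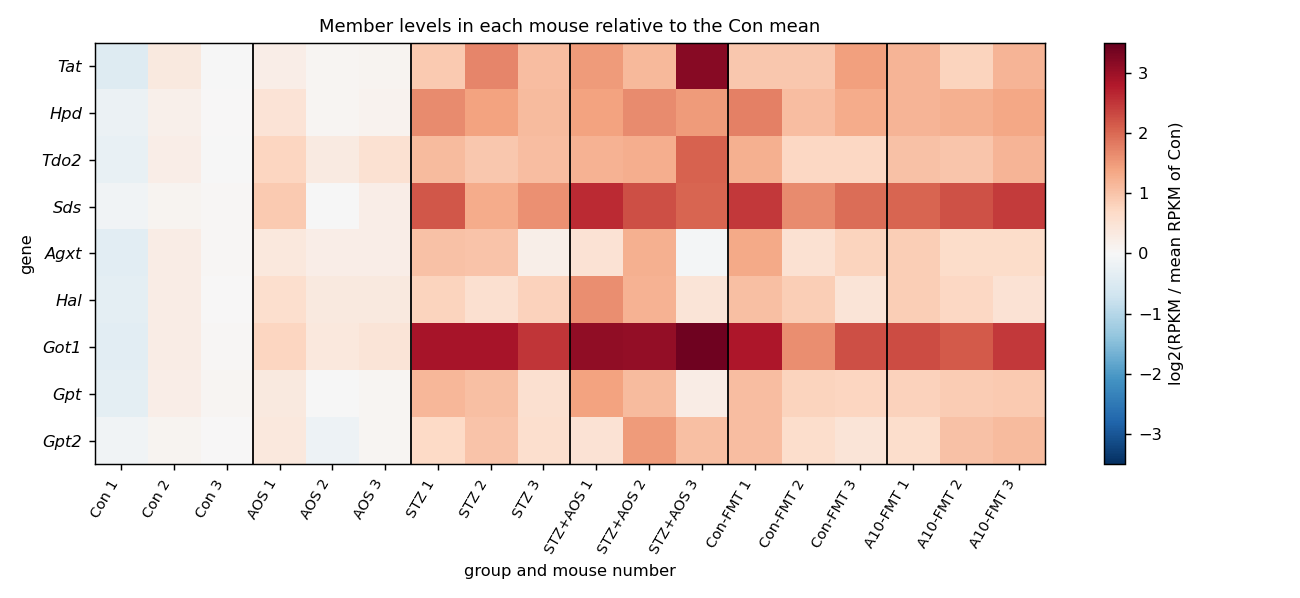
Level of each member (rows) in each mouse (columns, grouped by treatment) as log2 of its RPKM over the Con mean; red is above and blue below the Con mean. Got1 and Sds are the reddest rows in most of the 12 mice given STZ, but Tat is above Sds in STZ mouse 2 and in STZ+AOS mouse 3. Tat in STZ+AOS mouse 3 is the darkest square outside the Got1 row.

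Across all 18 mice, the 12 given STZ were above the 6 others without exception for 5 members, Tat, Hpd, Sds, Got1 and Gpt2, as for 10.7% of all tested genes. For Gpt 11 of the 12 mice given STZ were above the highest of the 6 others, for Tdo2 and Agxt 10, and for Hal 8. Con had the lowest mean and AOS the next lowest for all 9 genes. The highest mean was that of STZ+AOS for 8 genes and that of Con-FMT for Agxt. How many of all tested genes showed such an order was not counted. Median RPKM sums of the groups were highest in Con (760847), next in AOS (739668) and lowest in STZ+AOS (641961), and their part in this order was not tested. The 4 STZ-treated groups came in varying order between these ends, and none of the differences tested among them passed.

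The rest of the pathway was read from 62 further genes of amino acid catabolism, of which 61 were tested. In STZ vs Con, 35 were called higher and 3 lower, where 30.8% of all tested genes were called higher and 5.25% lower. The median change of the 61 was 0.53, beside 0.21 over all genes. With median-ratio scaling 22 were called higher and 5 lower, beside 12.2% and 12.1% of all genes. The glutamate and ornithine list had 5 of 8 higher, led by ornithine aminotransferase (Oat), which went from 78.1 ± 4.69 RPKM to 835 ± 165 RPKM (SD, n = 3; change 3.39), and by the liver glutaminase Gls2 (1.52), and 3 of 8 with median-ratio scaling. Of the branched-chain list, 13 of 17 were higher (7 with median-ratio scaling), with propionyl-CoA carboxylase alpha (Pcca, 0.86) and the Bckdhb subunit of the branched-chain keto acid dehydrogenase (0.85) at the top. All 3 histidine genes beyond Hal were higher, led by Amdhd1 (0.81) and urocanase (Uroc1, 0.75), but with median-ratio scaling Uroc1 alone was called, and Amdhd1 had an adjusted p of 0.133. The lysine and kynurenine aminotransferase list had 5 of 7 higher (4 with median-ratio scaling), with Dhtkd1 (1.63) and Kyat3 (1.45) leading.

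The aromatic and the serine-glycine lists were more mixed. Among 12 aromatic genes, 4 were higher, led by Acmsd (1.78), which steers tryptophan carbon away from NAD synthesis, and 7 were not called. With median-ratio scaling, 3 aromatic genes were higher and 2 lower. Among 14 tested serine, glycine, threonine and glyoxylate genes, 5 were higher and 8 were not called (4 higher and 2 lower with median-ratio scaling). Glycine N-methyltransferase (Gnmt, 1.33) and Sdsl (1.22) led this list. Of all tested genes, 30.8% were called higher and 5.25% lower, and 12.2% and 12.1% with median-ratio scaling. The main counts of both lists lay near the shares of all genes. The 3 genes called lower, named after their values were seen, were Kyat1 (-0.89), Hao1 (-0.68) and Ido2 (-0.59). Of 11 regulators, 5 were higher (3 higher and 1 lower with median-ratio scaling). Ppargc1a (1.86), a coactivator of gluconeogenic genes, went from 0.67 to 5.51 RPKM. Klf15 (1.37), a transcription factor known to act on amino acid breakdown, went from 38.2 to 98.7 RPKM. Ppargc1a was at most 0.77 RPKM in Con and 0.91 RPKM in AOS. It thus passed the filter on low values only through mice given STZ, where it was high, and its call is no independent support.

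**Figure D5:**
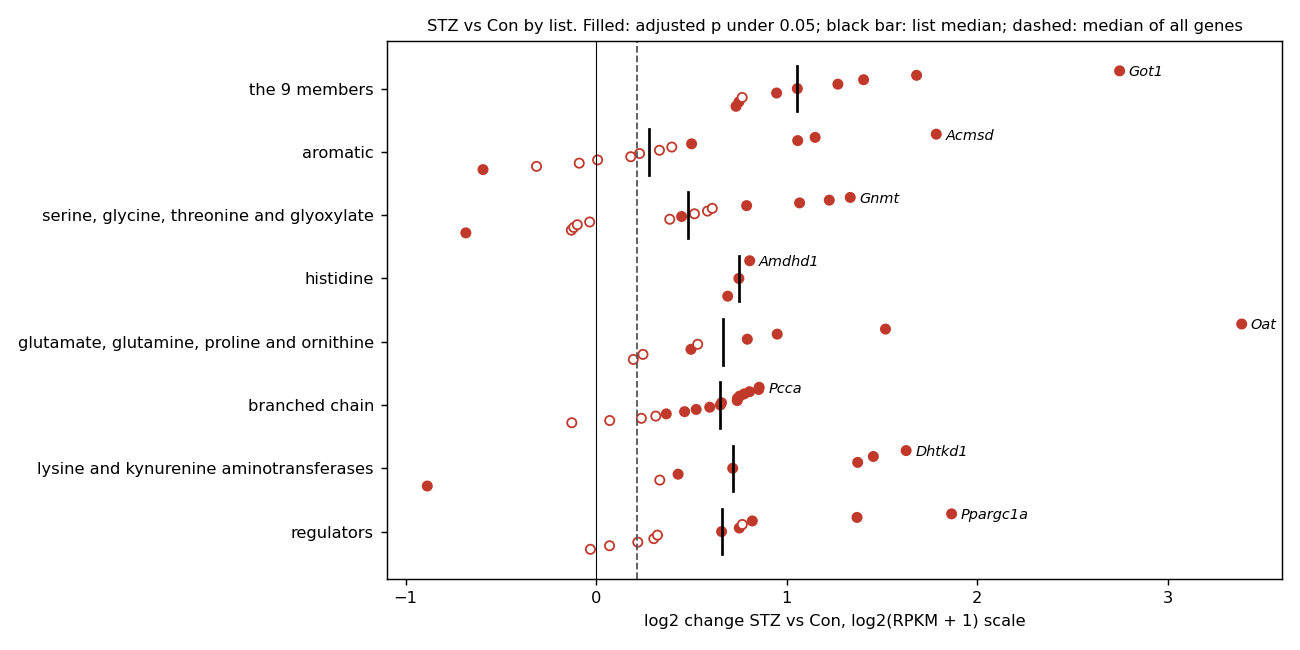
Change in STZ vs Con (x axis, log2(RPKM + 1) scale) of the 9 members and of the genes in each list; filled points passed an adjusted p under 0.05, black bars are list medians, and the dashed line is the median of all genes (0.21). The 9 members lie to the right of the dashed line, and Oat has the largest change shown.

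In Con-FMT vs Con, 32 of the 61 were called higher and none lower, beside 16.3% and 1.78% of all tested genes. A10-FMT vs Con gave 25 higher and none lower, beside 14.7% and 2.39%. None was called in Con-FMT vs STZ or A10-FMT vs STZ, beside 0.166% and 0.49% of all tested genes. STZ+AOS vs AOS gave 18 higher and 7 lower, where 31.8% of all genes were called higher and 6.11% lower, and 12 higher and 13 lower with median-ratio scaling. The list median was 0.23, near the 0.21 over all genes, and -0.012 with median-ratio scaling, while the 9 members had a median of 0.98 in the same comparison.

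Zonal hepatocyte markers moved with the same groups. The 5 periportal markers summed to 3139 to 4116 RPKM in Con and 6297 to 7793 RPKM in STZ, and the 6 pericentral markers to 2478 to 3354 RPKM and 4443 to 6805 RPKM. These lists hold Gls2 and Oat, which are also in the lists above. Kupffer cell markers summed to 51.3 to 80.01 RPKM in Con and 80.9 to 182 RPKM in STZ, and stellate cell markers to 74.6 to 91.3 RPKM and 113 to 144 RPKM. Lymphocyte markers went the other way, from 2.64 to 2.99 RPKM in Con to 1.55 to 2.32 RPKM in STZ. Hepatocyte, endothelial, cholangiocyte, neutrophil and erythroid sums overlapped between Con and STZ. Of all tested genes, 40.6% were higher in STZ than in Con without overlap. The part of these markers in the results was not tested.

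Genes whose levels followed a member most closely over the 18 libraries were ranked by Pearson's r of log2(RPKM + 1), as a description, for the 8 members called in STZ vs Con (not Agxt). The libraries share their treatment groups, so that any gene that differs with STZ can rank high. Got1 was most like Cyp4a14, Cyp4a10 and Fth1 (r of 0.990 to 0.989). Cyp4a14 and Cyp4a10 are of the same gene family, and whether reads were shared between them was not tested. Hpd was most like Cyp4a10, Ass1 and Gls2 (0.979 to 0.974), and Ass1 is the urea cycle enzyme that takes up aspartate. Gpt was most like Adssl1, Gstt2 and Akr1d1 (0.982 to 0.965), and Tat was most like Ubqln4, Fxr2 and Zc3h18 (0.963 to 0.956). Sds followed Eif2d, Hpd and Etnk2 (0.962 to 0.950) and Tdo2 followed Abcc2, Gpd1l and Cyp2b10 (0.961 to 0.949). The weakest matches among these 8 were those of Gpt2 with Slc38a4, Usp22 and Syap1 (0.930 to 0.917) and of Hal with Chtop, Sfxn1 and Fgfr2 (0.911 to 0.906).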

How the data were processed

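Liver mRNA of 18 mice was sequenced. By the study's methods the authors enriched poly(A) mRNA, sequenced it on an Illumina HiSeq instrument, aligned reads with SOAPaligner and deposited RPKM per gene; the submitters' processing notes instead name Bowtie 0.12.2 and mm10, and which of these made the values is not known here. The 19057 rows held 3 repeated symbols, of which the row with the higher mean was kept (19054 symbols), and 26 date-like symbols. Values were analysed as log2(RPKM + 1) for genes with at least 1 RPKM in 3 of 18 libraries (10821 genes), which shrinks changes of low genes. Group means of all 6 groups were fitted with limma 3.58.1 (R 4.3.3, eBayes with trend) and p-values adjusted by Benjamini-Hochberg over all genes of a comparison. Intervals are 95% intervals of the model. All 9 members were located by symbol in the GENCODE M21 annotation of GRCm38, the build that mm10 names. The p-values set differences against the spread between mice within groups, estimated over all 18 libraries. They take the mice as independent, and nothing says whether mice shared cages. Members, lists and motifs were chosen with earlier results of these data known. The text names all 9 members, and from each list at most the 2 called genes with the largest change in STZ vs Con; Got2, Kyat1, Hao1 and Ido2 were named outside this rule after their values were seen. 1 gene that this rule names is not reported here. The procedure was tested on simulated data. Mouse numbers 1 to 3 recur in all groups and come from the labels. Same-numbered mice of Con-FMT and A10-FMT deviated together (correlations 0.121 to 0.291), the only pair of groups with all such correlations over 0.1. Some other pairs had all of them above 0 but not all over that limit, such as Con and A10-FMT (0.063 to 0.145). Alternatives were 2 other scalings (median-ratio, quantile), a pseudocount of 0.1, 2 other filters (none, and 1 RPKM in all libraries), no trend in limma, fewer groups, a replicate block, a stricter threshold (adjusted p of 0.001 or less and a log2 change of at least 1) and leaving out each mouse; leaving out STZ mouse 3 and STZ+AOS mouse 3 in every comparison was added after seeing the data. Count tests were not run, since the values are RPKM.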

Additional observations from a re-analysis of the deposited data

How the results depend on the processing

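All 9 member changes in STZ vs Con, Con-FMT vs Con and A10-FMT vs Con stayed above 0 under every alternative, whereas the number called moved. In STZ vs Con the member count of 8 became 5 with either other scaling (median-ratio or quantile), 3 with the stricter threshold and 5 to 9 with 1 mouse left out. In Con-FMT vs Con the 8 became 3, 3 and 3 in the same order, 5 with no filter, and 3 to 9 with 1 mouse left out. In A10-FMT vs Con the 6 became 3 with the stricter threshold and 4 to 9 with 1 mouse left out. There Gpt and Gpt2 lost their calls with quantile normalization, and Gpt with median-ratio scaling. Using only the compared groups added Tat, Agxt and Hal in A10-FMT vs Con, for 9 called. In STZ+AOS vs AOS the 8 became 3 with the stricter threshold and 6 to 8 with 1 mouse left out. In the 6 comparisons with no member called, no alternative gave a call (lowest adjusted p 0.09), and 30 of 54 member values changed sign under at least 1 alternative.

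For the 61 other pathway genes, the 38 called in STZ vs Con became 7 with the stricter threshold and 24 to 43 with 1 mouse left out (24 without Con mouse 1 and 25 without STZ mouse 1). The 25 in A10-FMT vs Con became 13 with median-ratio scaling, 11 with quantile normalization, 38 with only the compared groups, 4 with the stricter threshold and 9 to 32 with 1 mouse left out. The 32 in Con-FMT vs Con became 12, 13, 2 with the stricter threshold and 11 to 42. The 25 in STZ+AOS vs AOS became 5 with the stricter threshold; with median-ratio scaling they stayed 25 in number, but 12 higher and 13 lower in place of 18 and 7. Calls of 0 became 1 in AOS vs Con with only the compared groups, 0 to 3 in A10-FMT vs STZ and 0 to 6 in Con-FMT vs STZ with 1 mouse left out, the highest without STZ mouse 3. Over all genes, calls ran from 308 to 4659 in STZ vs Con, 78 to 3377 in A10-FMT vs Con, 58 to 2630 in Con-FMT vs Con, 298 to 4446 in STZ+AOS vs AOS, 0 to 43 in AOS vs Con, 0 to 6 in STZ+AOS vs STZ, 0 to 1 in A10-FMT vs Con-FMT and 0 to 3 for the difference between STZ effects. The causes were not tested.

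With 1 mouse left out, some values changed sign. Agxt ran from -0.059 (without STZ+AOS mouse 2) to 0.59 in STZ+AOS vs AOS, from -0.14 to 0.30 in Con-FMT vs STZ, from -0.32 to 0.067 in A10-FMT vs Con-FMT and from -0.52 to 0.12 in STZ+AOS vs STZ. Tat ran from -0.34 to 0.058 in A10-FMT vs STZ and from -0.10 to 0.93 in the difference between STZ effects. In AOS vs Con, Tat ran from -0.039 to 0.36 and Gpt2 from -0.050 to 0.22, while Hal kept its sign (0.28 to 0.59). With the mouse number as a replicate block, members called were 9 in STZ vs Con, 7 in A10-FMT vs Con, 7 in Con-FMT vs Con and 8 in STZ+AOS vs AOS, and 0 in the others; 1 of 15 pairs of groups had all same-number correlations over 0.1, and the block changed no count by over 1.5 times. The lowest member value stood for an estimated 909 reads, a number that depends largely on the preset window used to estimate depth.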
